A study of Mus musculus with 3 samples.

Results

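The 40 genes described here drive, restrain or mark the passage of a cell through G1, DNA replication and mitosis. Their levels were read in blood monocytes, cells that circulate mostly without dividing. The genes are the members of a list chosen by function, 40 out of 55536 genes in the tables. They were split by textbook role into 15 genes of G1, 14 of S phase and 11 of mitosis. Total RNA was sequenced from monocytes, recorded as primary cells of peripheral blood from adult C57BL/6J mice of 5 to 6 weeks, in 3 libraries numbered as biological replicates 1, 2 and 3. There was 1 group, with no treatment, no mutant allele and no second condition, so levels were compared between genes and between libraries, and each gene was also tested against a fixed level of 1 TPM (relative abundance per length of transcript, scaled to a fixed sum over all rows). All 3 libraries carry the same donor record, sex was not collected and no source used here gives the isolation gate, so p-values speak only of how far these libraries scatter, and that scatter may be technical in part.

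In G1, D-type cyclins with CDK4 and CDK6, and then cyclin E with CDK2, phosphorylate the retinoblastoma protein and release E2F transcription factors, while CDK inhibitors such as p27 hold these kinases back. E2F target genes supply the MCM helicase, its loaders, the sliding clamp PCNA and the enzymes that make deoxynucleotides, and a later wave of genes held in check by the DREAM complex supplies cyclins A and B, CDK1 and the Aurora and Polo kinases for mitosis. Blood monocytes arise from dividing marrow progenitors and are known as largely non-dividing cells that can still mature into macrophages or dendritic cells.

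The promoters of some members are shown because E2F and CHR elements are the known switches of these waves. RefSeq promoter windows (build GRCm38.p6, 250 bases before to 50 after a gene start) were at hand for 32 of the 40 genes, 11 of G1, 12 of S and 9 of mitosis. Both strands were searched for the E2F words TTTCCCGC, TTTCGCGC, TTTGCCGC and TTTGGCGC, for the CHR word TTTGAA, an element named from cell cycle genes, and for the CCAAT box. An E2F word stood in 2 of 11 G1 windows, 6 of 12 S windows and 1 of 9 mitotic windows, against 2.6% of 27025 genes with a window. The CHR word stood in 1 of 11, 2 of 12 and 6 of 9, against 20.2% of genes, and the CCAAT box in 6 of 11, 9 of 12 and 8 of 9, against 41.1%. A gene with several windows was counted once. These are matches of letters, not measured binding. In the stretches that follow, each on the strand of its gene and lying before the start, capitals mark E2F words, CHR words and CCAAT boxes in either orientation, and in Mcm5 and Mcm6 an E2F word on each strand overlaps the other:
Mcm5, chr8:75109349-75109508, plus strand: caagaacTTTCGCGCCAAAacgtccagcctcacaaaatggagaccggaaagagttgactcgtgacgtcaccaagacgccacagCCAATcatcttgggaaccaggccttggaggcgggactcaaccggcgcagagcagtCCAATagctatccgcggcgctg
Mcm6, chr1:128359706-128359825, minus strand: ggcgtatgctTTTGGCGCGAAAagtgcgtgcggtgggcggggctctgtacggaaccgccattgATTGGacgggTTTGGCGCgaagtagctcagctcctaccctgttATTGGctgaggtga
Top2a, chr11:99024190-99024299, minus strand: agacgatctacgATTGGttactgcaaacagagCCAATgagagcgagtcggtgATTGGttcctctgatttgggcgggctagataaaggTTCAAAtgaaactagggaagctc
Cdk1, chr10:69352939-69353052, minus strand: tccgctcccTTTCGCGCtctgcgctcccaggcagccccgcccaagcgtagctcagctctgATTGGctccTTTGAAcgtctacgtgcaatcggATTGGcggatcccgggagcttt
Ccnb2, chr9:70421555-70421724, minus strand: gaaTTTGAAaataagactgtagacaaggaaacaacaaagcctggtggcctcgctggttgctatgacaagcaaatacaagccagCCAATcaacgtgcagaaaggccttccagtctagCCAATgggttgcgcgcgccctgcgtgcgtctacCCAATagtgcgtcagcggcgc
Cdkn1b, chr6:134920231-134920400, plus strand: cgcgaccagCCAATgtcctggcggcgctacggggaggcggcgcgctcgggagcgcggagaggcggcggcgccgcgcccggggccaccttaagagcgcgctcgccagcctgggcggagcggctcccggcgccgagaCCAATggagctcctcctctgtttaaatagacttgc
Mcm5 and Mcm6 were chosen as S genes with paired E2F words, and Top2a, Cdk1 and Ccnb2 as mitotic genes with CHR words and CCAAT boxes. Cdkn1b was chosen as the gene with the highest level, and its window holds CCAAT boxes and no E2F or CHR word. Further CHR words lie outside the stretches shown, at -179 in Top2a, -15 in Cdk1 and 4 in Ccnb2, counted from the start. Which CHR word acts in a gene was not tested.

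The libraries held 27.2, 26.5 and 19.9 M expected counts (estimated numbers of reads per gene, summed). Protein-coding genes took 10.9%, 9.84% and 10.7% of TPM, so 1 TPM would be 9.16, 10.2 and 9.34 TPM if protein-coding genes alone were counted. Per 1000 bases of effective length, 1 TPM came from 112, 121 and 76.0 counts. The monocyte label was met by its markers, with all 12 above 1 TPM, led by Lyz2 (1448, 1238 and 718 TPM in libraries 1, 2 and 3) and Ctss (497, 369 and 234 TPM), and with Csf1r, the receptor for the growth factor that keeps monocytes alive, at 69.8, 52.4 and 86.6 TPM. Markers of other cells were present too. All 10 NK cell markers also lay above 1 TPM and summed to 705, 599 and 1734 TPM, led by Gzma and by Ncr1, the receptor NKp46. The 9 erythroid markers summed to 3540, 3332 and 265 TPM, led by the globins Hba-a2 and Hbb-bs. The NK cell sum exceeded the monocyte sum in library 3, and the erythroid sum did so in libraries 1 and 2. The 9 B cell markers summed to 41.7, 44.7 and 42.5 TPM, led by Cd79b and Ms4a1, and the 7 plasma cell markers, some of which other cells also express, to 60.3, 56.3 and 71.7 TPM, led by Xbp1 and Jchain. The 8 T cell markers summed to 3.66, 3.48 and 6.81 TPM, led by Cd3g and Trac, with Cd3e at 0.080, 0.030 and 0.16 TPM. The 8 neutrophil markers summed to 142, 128 and 9.62 TPM, led by Retnlg and Csf3r, with Ly6g at 0 counts in each library.

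Of the 40 genes, 19 lay above 1 TPM, 3 lay below it and 18 were on neither side (edgeR quasi-likelihood test, adjusted p under 0.05 over 17664 genes tested). Over all genes tested, 43.2% lay above and 6.38% below. The genes above were 10 of 15 in G1, 8 of 14 in S and 1 of 11 in mitosis, and those below were 1, 2 and 0. At an unadjusted p under 0.05 edgeR put 1 mitotic gene below, and by adjusted p DESeq2 put 5 and limma 6 of the 11 there. Over all genes those tools called more as well, DESeq2 43.2% above and 23.3% below, and limma 41.2% above and 35.6% below. The median of mean TPM was 1.89 in G1, 2.49 in S and 0.297 in mitosis, beside 2.09 for 12994 protein-coding genes tested. Of the genes above that protein-coding median, 7 were of G1, 7 of S and 0 of mitosis. In bulk samples, fewer cells with a transcript and less of it per cell cannot be told apart.

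**Figure D1:**
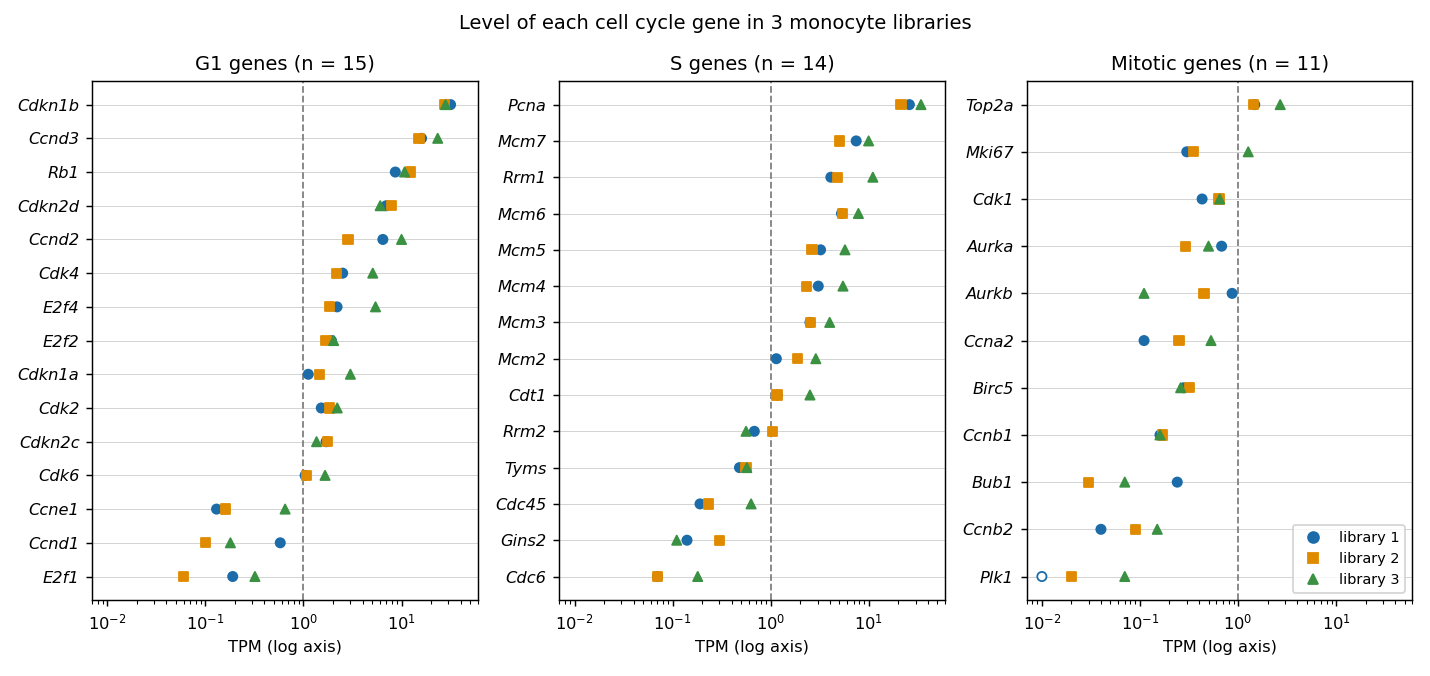
TPM of each of the 40 genes (log axis) in libraries 1, 2 and 3, in 3 panels for G1, S and mitotic genes, ordered by mean. The dashed line marks 1 TPM, and the open circle at the left edge is Plk1, listed at 0 in library 1. Of the 11 mitotic genes only Top2a lies to the right of the line in every library.

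The highest level of the G1 group belonged to 1 inhibitor of cyclin-dependent kinases, Cdkn1b, and the other inhibitors lay below Ccnd3 and Rb1. Cdkn1b (ENSMUSG00000003031.14, chromosome 6, 134920401 to 134925513, mm10), which encodes p27, an inhibitor of CDK2 complexes, had 31.6, 27.6 and 28.1 TPM in libraries 1, 2 and 3, from 9255, 8240 and 6858 counts. Its mean of 29.1 ± 2.18 TPM (SD, n = 3; edgeR adjusted p = 5.385e-12 against 1 TPM) was the highest of the 40 genes and lay at the 95.3 percentile of protein-coding genes. The 3 libraries were close to each other, with no library apart. Cdkn2d (chromosome 9, 21288410 to 21291407), which encodes p19, an inhibitor of CDK4 and CDK6, had 6.98, 7.84 and 6.06 TPM (edgeR adjusted p = 6.22e-08). Cdkn1a (chromosome 17, 29090976 to 29100727), the p53-induced inhibitor p21, had 1.12, 1.47 and 3.01 TPM, highest in library 3, and was called above 1 TPM (edgeR adjusted p = 0.0384). That call was lost without library 3 (edgeR adjusted p = 0.361), with the gene tables the authors made on the older GENCODE M4 annotation (edgeR adjusted p = 0.0802) and with limma (adjusted p = 0.0944). Cdkn2c, which encodes p18, another inhibitor of CDK4 and CDK6, had 1.70, 1.76 and 1.36 TPM and was on neither side (edgeR adjusted p = 0.0893). Without library 3 it was called above (edgeR adjusted p = 0.0400).

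Among the D-type cyclins, which bring CDK4 and CDK6 to their substrates, Ccnd3 was the most abundant and Ccnd1 the least. Ccnd3 (ENSMUSG00000034165.16, chromosome 17, 47505051 to 47599691) had 16.0, 15.1 and 23.4 TPM, a mean of 18.1 ± 4.56 TPM (SD, n = 3; edgeR adjusted p = 2.55e-10), from 2502, 2631 and 2832 counts. Ccnd2 (chromosome 6, 127125162 to 127152193) had 6.45, 2.85 and 10 TPM (edgeR adjusted p = 1.12e-06), with library 3 highest and library 2 lowest. Ccnd1 (chromosome 7, 144929931 to 144939925) had 0.58, 0.10 and 0.18 TPM from 114, 43 and 48 counts, on neither side (edgeR adjusted p = 0.0650). DESeq2 (adjusted p = 0.00951) and limma (adjusted p = 0.0132) put Ccnd1 below 1 TPM, beside 23.3% and 35.6% of all genes. The 3 cyclins thus kept the order Ccnd3, Ccnd2, Ccnd1 in 3 of 3 libraries. Ccnd1 shares 285 bases of exon on the opposite strand with LTO1 (3.32, 4.70 and 5.96 TPM), and since the strand setting of the counting is unstated, reads of that stretch could belong to either gene. A processed pseudogene of Ccnd3, 96.3% identical, was listed at 0.32, 0 and 0.040 TPM.

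By TPM over all transcripts of a gene, the kinases of G1 kept the order Cdk4, Cdk2, Cdk6 in 3 of 3 libraries. Cdk4 (chromosome 10, 127063534 to 127067920) had 2.51, 2.18 and 5.09 TPM (edgeR adjusted p = 0.000186) and was highest in library 3; it overlaps Tspan31 on the opposite strand (5.24, 4.41 and 3.93 TPM). Cdk2, the partner of cyclin E, had 1.52, 1.83 and 2.21 TPM (edgeR adjusted p = 0.00806). Cdk6 had 1.04, 1.08 and 1.66 TPM and was on neither side (edgeR adjusted p = 0.215). Every library stood above 1 TPM for each of these kinases, but the call for Cdk2 was lost with the GENCODE M4 gene tables (edgeR adjusted p = 0.169). The order was not kept in coding transcripts alone, where Cdk2 was the lowest in each library with 0.56, 0.90 and 0.81 TPM. There Cdk4 had 1.03, 1.38 and 1.58 TPM and Cdk6 had 1.04, 1.07 and 1.45 TPM. Ccne1, which encodes cyclin E1 and is itself an E2F target, stood apart from them with 0.13, 0.16 and 0.65 TPM from 26, 36 and 84 counts (edgeR adjusted p = 0.105, neither side). DESeq2 (adjusted p = 0.0346) and limma (adjusted p = 0.0172) put Ccne1 below 1 TPM, beside 23.3% and 35.6% of all genes.

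The retinoblastoma gene was well expressed, and the E2F factors differed among themselves. Rb1 (ENSMUSG00000022105.6, chromosome 14, 73183673 to 73325822), the brake on E2F, had 8.64, 12.4 and 10.7 TPM, a mean of 10.6 ± 1.90 TPM (SD, n = 3; edgeR adjusted p = 2.13e-09). E2f4 (chromosome 8, 105297663 to 105305370), a factor that sits with RB family proteins on silent promoters, had 2.20, 1.85 and 5.43 TPM (edgeR adjusted p = 0.000398), and library 3 stood above the others. E2f2, an activator, had 1.93, 1.70 and 2.03 TPM (edgeR adjusted p = 0.00220) with little spread. E2f1 (chromosome 2, 154559407 to 154569892), the founding activator, had 0.19, 0.060 and 0.32 TPM from 56, 19 and 63 counts and lay below 1 TPM (edgeR adjusted p = 0.0383). Its call was lost with any library left out (edgeR adjusted p from 0.0772 to 0.120). In each library E2f1 was the lowest of these 4 genes. Rb1 overlaps Lpar6 (7.11, 5.95 and 3.52 TPM) and Rcbtb2 (5.25, 7.36 and 5.89 TPM) on the opposite strand.

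Of the S group, the sliding clamp was the most abundant. Pcna (ENSMUSG00000027342.14, chromosome 2, 132249162 to 132253314), which tethers DNA polymerases in replication and also serves in repair, had 25.9, 21.3 and 34.0 TPM from 3383, 3375 and 2602 counts. Its mean was 27.1 ± 6.43 TPM (SD, n = 3; edgeR adjusted p = 3.77e-11), and no library came near 1 TPM. The processed pseudogene Pcna-ps2, 99.2% identical over 781 bases, was listed at 1.45, 0.62 and 2.00 TPM, so reads could have been divided between both and the level of Pcna is uncertain.

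All 6 subunits of the MCM2-7 helicase, the ring that is loaded on origins in G1 and unwinds DNA in S, lay above 1 TPM. Mcm7 had 7.43, 4.99 and 9.95 TPM, Mcm6 5.26, 5.41 and 7.83 TPM and Mcm5 3.22, 2.63 and 5.71 TPM. Mcm4 had 3.05, 2.32 and 5.45 TPM, Mcm3 2.51, 2.55 and 3.99 TPM and Mcm2 1.14, 1.89 and 2.88 TPM. Library 3 was highest for each of the 6 subunits, and the subunits, which act in equal numbers in the ring, spanned means from 1.97 ± 0.873 TPM (Mcm2) to 7.46 ± 2.48 TPM (Mcm7; SD, n = 3 each). The edgeR adjusted p was 0.0111 for Mcm2 and between 1.02e-07 and 4.575e-05 for the other subunits. With the M4 tables Mcm5 had 1.30, 1.57 and 2.92 TPM and stayed above 1 TPM (edgeR adjusted p = 0.00857). Without library 3 Mcm2 was not called (edgeR adjusted p = 0.0861), nor with the M4 tables (edgeR adjusted p = 0.0878) or on the log2(TPM + 0.1) scale by limma (adjusted p = 0.0530). Mcm7 (chromosome 5, 138164583 to 138172422) has a processed pseudogene, Gm5487, that is 97.7% identical and was listed at 0.030, 0 and 0.040 TPM, and it overlaps Ap4m1 and Cops6 on the opposite strand.

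Of the 4 factors that load and fire that helicase, 0 lay above 1 TPM by edgeR (0 also at an unadjusted p under 0.05, and 0 by DESeq2 and limma) and 2 lay below. Cdc6 (chromosome 11, 98907801 to 98923940), which loads MCM rings on origins, had 0.070, 0.070 and 0.18 TPM from 37, 19 and 30 counts and lay below 1 TPM (edgeR adjusted p = 0.0337). Gins2 (chromosome 8, 120578633 to 120589304), a subunit of the GINS complex that completes the active helicase, had 0.14, 0.30 and 0.11 TPM and also lay below (edgeR adjusted p = 0.0131). Cdc45, the other helicase activator, had 0.19, 0.23 and 0.63 TPM (edgeR adjusted p = 0.106, neither side) and overlaps Ufd1 on the opposite strand (11.6, 11.8 and 11.6 TPM). DESeq2 (adjusted p = 0.0451) and limma (adjusted p = 0.0234) put Cdc45 below 1 TPM, beside 23.3% and 35.6% of all genes. Cdt1, the loader that geminin inhibits, had 1.17, 1.16 and 2.51 TPM and was on neither side (edgeR adjusted p = 0.113). With the M4 tables Cdt1 had 0.55, 0.96 and 1.13 TPM, also on neither side (edgeR adjusted p = 0.641). Of these 4 genes only Cdt1 reached the level of the lowest MCM subunit in any library, in library 1. The call for Cdc6 was lost with any library left out (edgeR adjusted p from 0.0782 to 0.136) and that for Gins2 without library 1 (edgeR adjusted p = 0.0580). Gins2 shares 2758 bases with Gse1 on the opposite strand (1.04, 0.98 and 2.40 TPM), and Cdt1 lies inside Gm20388 on its own strand (1.05, 1.51 and 6.58 TPM), so both levels are uncertain.

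Of 3 enzymes of deoxynucleotide supply, 1 lay above 1 TPM. Rrm1 (ENSMUSG00000030978.10, chromosome 7, 102441695 to 102469771), the large subunit of ribonucleotide reductase, had 4.10, 4.79 and 10.99 TPM (edgeR adjusted p = 9.29e-07). With the M4 tables it had 2.54, 1.84 and 3.07 TPM, still above 1 TPM (edgeR adjusted p = 0.000176), with library 3 less far from the others. Rrm2, the small subunit that is made in S phase and limits the enzyme, had 0.68, 1.04 and 0.56 TPM (edgeR adjusted p = 0.452, neither side). Tyms, thymidylate synthase, had 0.48, 0.56 and 0.57 TPM (edgeR adjusted p = 0.189, neither side). Rrm1 exceeded Rrm2 in 3 of 3 libraries.

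Mitotic genes were the lowest of the 3 groups. Top2a (ENSMUSG00000020914.17, chromosome 11, 98992943 to 99024189), the topoisomerase that untangles sister chromosomes, was the exception with 1.48, 1.45 and 2.69 TPM (edgeR adjusted p = 0.00805), and it was no longer called without library 3 (edgeR adjusted p = 0.0530). Mki67 (chromosome 7, 135689784 to 135716361), the Ki-67 antigen that coats mitotic chromosomes and marks cycling cells, had 0.30, 0.35 and 1.27 TPM from 328, 410 and 952 counts and was on neither side (edgeR adjusted p = 0.208). Without library 3 it lay below 1 TPM (edgeR adjusted p = 0.000731). For both genes library 3 stood above the others.

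The cyclins and kinases of mitosis had few counts. Cdk1 (chromosome 10, 69335146 to 69352938), the kinase that starts mitosis, had 0.43, 0.64 and 0.65 TPM from 25, 68 and 22 counts. Its partner Ccnb1 had 0.16, 0.17 and 0.16 TPM from 28, 23 and 8.26 counts, with 4 pseudogenes of over 95% identity listed at 0.010 TPM at most. Ccnb2 had 0.040, 0.090 and 0.15 TPM from 6, 15 and 15 counts. Every one of these values lay under 1 TPM, and edgeR called none of the 3 genes (adjusted p from 0.125 to 0.364). DESeq2 put Ccnb1 (adjusted p = 0.0277) and Ccnb2 (adjusted p = 0.0142) below 1 TPM, and limma did so too. Ccna2, cyclin A2, which acts in S phase and mitosis, had 0.11, 0.25 and 0.53 TPM from 36, 48 and 54 counts, and shares 431 bases with Exosc9 on the opposite strand (7.28, 6.11 and 6.61 TPM).

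Among kinases and the checkpoint, Aurka, the kinase of the spindle poles, had 0.68, 0.29 and 0.50 TPM. Aurkb, the kinase of the chromosomal passenger complex, had 0.87, 0.45 and 0.11 TPM, and its partner Birc5, survivin, had 0.28, 0.32 and 0.26 TPM. By TPM over all transcripts, these 3 genes were not higher in library 3 than in library 1. For Aurkb all 0.87 TPM of library 1 lay on retained-intron transcripts, and its coding transcripts had 0, 0.45 and 0.11 TPM. Bub1, of the spindle checkpoint, had 0.24, 0.030 and 0.070 TPM from 26, 12 and 7 counts. Plk1 (chromosome 7, 122159439 to 122169873), the Polo kinase, was the lowest of the 40 genes with 0, 0.020 and 0.070 TPM from 0, 5 and 10 counts, where 3 counts, the limit that a count of 0 allows, would be 0.0269 TPM in library 1. Of the 8 mitotic kinases and cyclins 0 were called on either side by edgeR, whose adjusted p ran from 0.0900 to 0.364, and at an unadjusted p under 0.05 1 lay below. DESeq2 called 5 of them below 1 TPM (Plk1, Bub1, Ccna2, Ccnb1 and Ccnb2), and so did limma, beside 23.3% and 35.6% of all genes below by these tools. Among 9 markers of marrow progenitors, which divide, Elane, Mpo, Prtn3 and Fcnb had 0 counts in each library. The 9 markers summed to 0.78, 0.85 and 0.91 TPM, most of it Kit and Flt3. The means of Kit (0.437 TPM) and Flt3 (0.297 TPM) lay within the range of the mitotic kinases and cyclins, from Plk1 (0.030 TPM) to Cdk1 (0.573 TPM).

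The classes were then compared within each library by the difference of their mean log2(TPM + 0.1). G1 genes exceeded mitotic genes by 2.64, 2.52 and 2.85 on the log2 scale in libraries 1, 2 and 3; the mean difference of 2.67 ± 0.16 (SD, n = 3) corresponds to 6.37-fold. S genes exceeded mitotic genes by 2.10, 2.27 and 2.52, with a mean difference of 2.30 ± 0.21 (SD, n = 3) that corresponds to 4.91-fold. Both differences were larger than the spread between libraries and kept their sign under every alternative tried; with members of a mean of 1 TPM or more alone, where Top2a stands for mitosis, they were 1.15 and 1.28. G1 and S genes differed little, by 0.54, 0.26 and 0.32, with a mean difference of 0.37 ± 0.15 (SD, n = 3). That order turned with medians in place of means (-0.065) and with members of a mean of 1 TPM or more (-0.12), and without the 4 CDK inhibitors it was 0.014. No p is given for these differences, since the genes of a class are not replicates.

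**Figure D2:**
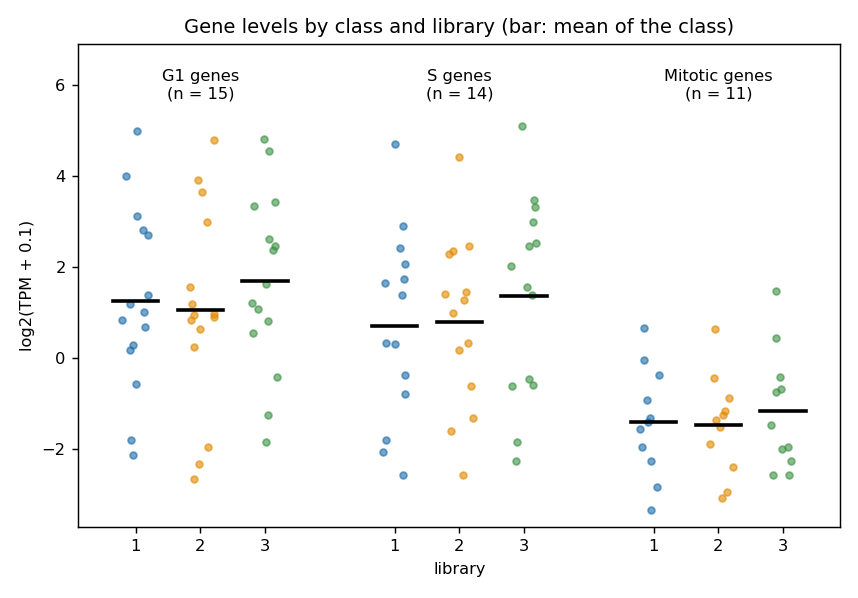
Levels of 15 G1, 14 S and 11 mitotic genes on the log2(TPM + 0.1) scale in libraries 1, 2 and 3; each point is a gene and each bar the mean of its class. The mitotic bars lie 2.52 to 2.85 below the G1 bars in the same library, while G1 and S bars lie within 0.54 of each other.

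Further genes of the same pathways were counted on lists chosen for their function. Of 18 further origin and fork proteins, 10 lay above and 1 below 1 TPM, led by the origin recognition subunits Orc4 (13.4, 12.9 and 12.9 TPM) and Orc3 (6.28, 5.69 and 8.39 TPM) and by Dbf4, the activator of the kinase CDC7 (6.98, 6.59 and 4.89 TPM). The lowest was Orc1, the subunit that in many cells is made anew for each cycle, with 0, 0 and 0.050 TPM. Of 25 polymerase, clamp loader and chromatin assembly genes, 16 lay above and 2 below, led by Pold4 (15.7, 8.81 and 11.03 TPM), Rpa1 (8.92, 7.54 and 10.6 TPM) and Pold3 (7.35, 5.30 and 8.21 TPM), with Chaf1a lowest at 0.48, 0.060 and 0.22 TPM. Many of these also act in DNA repair.

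Of 10 further genes of deoxynucleotide metabolism, 5 lay above and 1 below. Samhd1, a triphosphohydrolase that destroys deoxynucleotides in non-dividing myeloid cells, had 118, 111 and 112 TPM (edgeR adjusted p = 1.29e-14), the highest of the list and above every one of the 40 genes in each library. It was followed by the mitochondrial kinase Tk2 (4.68, 3.66 and 5.09 TPM) and Dtymk (4.76, 2.57 and 4.06 TPM). No member had a lower mean than Dctd, a deaminase of deoxycytidylate, which had 0.050, 0.14 and 0.17 TPM.

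Of 30 further mitotic genes, 8 lay above and 5 below, with a median of 0.328 TPM. Pttg1, securin, had 11.5, 9.66 and 6.96 TPM, Bub3 7.72, 6.11 and 5.65 TPM and the midbody kinesin Kif23 8.22, 3.85 and 2.97 TPM, while the checkpoint kinase Ttk had 0, 0 and 0.050 TPM. The list held 11, 8 and 12 of 30 genes over 1 TPM in libraries 1, 2 and 3. Several of the 30 had a mean above that of every mitotic member, beside a majority at or under 1 TPM. Of 16 further RB, E2F and DREAM genes, 7 lay above and 1 below, led by the pocket protein Rbl2 (9.54, 9.88 and 16.7 TPM), Rbbp4 (8.64, 9.97 and 8.72 TPM) and the pocket protein Rbl1 (3.61, 2.90 and 5.13 TPM), with Mybl2, the activator of mitotic genes, lowest at 0, 0.030 and 0.15 TPM.

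Of 17 other CDKs, cyclins and inhibitors, 15 could be tested, and 5 lay above and 3 below. Cks2, a small subunit of CDK complexes, had 19.0, 22.9 and 5.67 TPM, and the unusual cyclins Ccng2 and Ccng1 had 10.1, 9 and 8.74 TPM and 8.93, 6.59 and 9.23 TPM; Cdkn2a, the Ink4a/Arf locus, was lowest at 0, 0 and 0.040 TPM. Of 12 genes of the p53 response, p53 itself included, 10 lay above and 1 below, led by Pmaip1 (24.2, 19.8 and 26.7 TPM), Mdm2 (18.4, 16.0 and 16.4 TPM) and Trp53inp1 (10.2, 10.9 and 14.3 TPM), with Zmat3 lowest at 0.13, 0.10 and 0.32 TPM. Of 12 antiproliferative and quiescence genes, 11 lay above and 0 below (edgeR; 0 below also at an unadjusted p under 0.05), with a median of 8.21 TPM. Btg1 had 64.0, 55.7 and 74.2 TPM, Btg2 45.1, 36.6 and 80.7 TPM and Pdcd4 33.8, 22.3 and 40.4 TPM, and Foxo1 was lowest at 0.78, 0.81 and 1.06 TPM. All of these counts stand beside 43.2% above and 6.38% below over all genes.

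The coding share of TPM was higher in G1 genes than in S and mitotic genes in each library, but the 4 CDK inhibitors weighed heavily. These inhibitors held 41.4, 38.7 and 38.5 TPM of the 82.6, 78.0 and 100.2 TPM of G1 genes. No retained-intron transcript is annotated for any of the 4, so their share near 100% was largely set by the annotation. The share of the other G1 genes was not computed, so the class difference cannot be told apart from the inhibitors. Transcripts annotated as protein-coding held 83.1%, 83.6% and 82.3% of the TPM of the 15 G1 genes in libraries 1, 2 and 3. They held 72.0%, 75.1% and 57.8% of that of the 14 S genes, and 70.8%, 73.6% and 65.4% of that of the 11 mitotic genes. Much of the rest was annotated as retaining an intron, 23.5%, 15.5% and 31.2% in S genes against 12.8%, 9.43% and 15.3% in G1 genes. Over members with a mean of 1 TPM or more, the median coding share per gene was 93.2%, 93.6% and 91.4% in 12 G1 genes. In 9 S genes of that level it was 73.8%, 62.9% and 62.1%. Of these genes, Cdkn1a, Cdkn1b, Cdkn2c, Cdkn2d and E2f2 in G1 and only Mcm4 in S have no annotated retained-intron transcript. For Cdkn1b, Cdkn2c, Cdkn2d and Mcm4 every annotated transcript is coding. The contrast of medians is therefore partly fixed by the annotation. The RNA was total and depleted of ribosomal RNA. TPM shares weigh short transcripts heavily, since each read of a short transcript counts for more.

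In Rrm1 the coding part was 57.8%, 27.3% and 19.1% of the gene's TPM. The coding Rrm1-201 (3997 bases) had 2.37, 1.31 and 2.10 TPM, while Rrm1-202 (747 bases), annotated for nonsense-mediated decay, had 1.12, 3.40 and 6.30 TPM. By counts the order was the other way, 1017, 612 and 609 for Rrm1-201 and 71.7, 241 and 268 for Rrm1-202. The coding transcript was thus not higher in library 3 than in library 1. Pcna, chosen after its values were seen, was of the same kind: coding Pcna-201 had 19.1, 19.5 and 17.98 TPM, close between libraries, while the retained-intron Pcna-202 had 2.99, 0.82 and 7.39 TPM and Pcna-204 2.72, 0.97 and 6.11 TPM. Mcm5-204, a retained-intron transcript of 760 bases, had 2.05, 0.98 and 2.39 TPM and was the leading single transcript of Mcm5 in libraries 1 and 3. By a further deposited set of transcript values, Mcm5-204 led in library 1, but coding Mcm5-203 passed it in library 3, with 3.065 against 2.985 TPM. The coding transcripts of Mcm5 together had 1.09, 1.66 and 2.90 TPM. Mcm7-203, a retained intron, had 2.02, 1.52 and 2.78 TPM, beside 4.84, 2.55 and 6.18 TPM for all coding transcripts of Mcm7. Cdt1 had 0.22, 0.64 and 0.25 TPM in coding transcripts, which was 18.8%, 55.2% and 9.92% of the gene. The retained-intron Cdt1-204 had 0.65, 0.22 and 0.94 TPM and led in libraries 1 and 3. It led in neither by the further set. There coding Cdt1-201 had 0.688 against 0.616 TPM for Cdt1-204 in library 1. In library 3 the retained-intron Cdt1-203 (1.53 TPM) and Cdt1-201 (1.34 TPM) stood above Cdt1-204 (1.27 TPM). The coding share of Rrm1 was 49.2%, 23.6% and 18.8% by that set, near the values above.

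**Figure D3:**
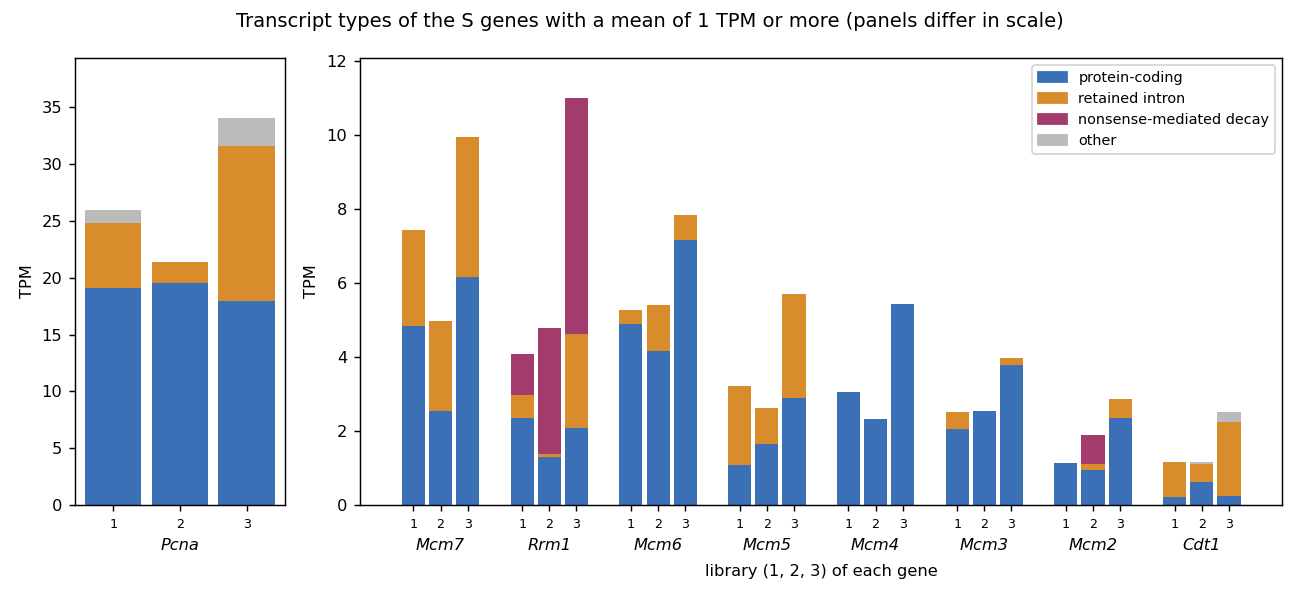
TPM of the 9 S genes with a mean of 1 TPM or more in libraries 1, 2 and 3, stacked by annotated transcript type; the left panel holds Pcna and has its own scale. The coding part of Pcna stays between 17.98 and 19.5 TPM, and the coding part of Rrm1 between 1.31 and 2.37 TPM, while the parts above them differ between libraries.

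In G1 genes the coding transcripts mostly led. All 3 annotated transcripts of Cdkn1b are coding. Its TPM was shared among Cdkn1b-203 (14.2, 11.5 and 8.05 TPM), Cdkn1b-202 (9.87, 6.25 and 15.5 TPM) and Cdkn1b-201 (7.51, 9.92 and 4.57 TPM). Ccnd3-205 led Ccnd3 with 5.21, 5.88 and 13.3 TPM and Cdk2-202 led Cdk2 with 0.56, 0.90 and 0.81 TPM, both of them coding. By the further set the retained-intron Cdk2-204 passed Cdk2-202 in library 1 (1.01 against 0.956 TPM) and library 3 (1.46 against 1.17 TPM), but not in library 2. The coding Cdk4-201 had 1.03, 0.74 and 1.38 TPM, and in library 1 the retained-intron Cdk4-207 was above it with 1.08 TPM. The coding part was 41.0%, 63.3% and 31.0% of Cdk4, and 36.8%, 49.2% and 36.7% of Cdk2, under 50% in each library. By the further set the coding part of E2f2 was 36.3%, 36.1% and 45.2%, against 100% here in each library. For Rb1 it was 36.9%, 29.7% and 37.0%, against 72.3%, 51.1% and 63.4% here. For Ccnd3 it was 68.8%, 66.4% and 65.9%, near the 67.1%, 70.4% and 68.4% here. In Ccnd2, chosen after its values were seen, 3.18 of the 6.45 TPM in library 1 lay on the 115-base Ccnd2-205 from 1.06 counts, and its coding transcripts had 3.20, 2.54 and 9.55 TPM.

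Each gene was also compared between libraries, relative to the median protein-coding gene and as a description with no replicate check. On that scale library 3 exceeded library 1 by a median of 0.35 (log2) over the 40 genes, with 27 higher and 13 lower, and library 3 exceeded library 2 by 0.23, with 27 higher and 13 lower. Library 2 exceeded library 1 by 0.20, with 26 higher and 14 lower. The shift of the median protein-coding gene, already taken off, was 0.21, 0.37 and -0.16 for these pairs. By class the median of library 3 minus library 1 was 0.33 in G1, 0.48 in S and 0.29 in mitosis. With protein-coding transcripts alone, an alternative added after the data were seen, these 3 medians were 0.26, 0.15 and 0.043.

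Over 2-fold higher in library 3 than in library 1 were 4 of the 22 genes with a mean of 1 TPM or more, where 6.96% of 8302 protein-coding genes of that level were. E2f4 had 5.43 TPM in library 3 against 2.20 TPM in library 1, Cdkn1a 3.01 against 1.12 TPM, Mcm2 2.88 against 1.14 TPM and Rrm1 10.99 against 4.10 TPM. The differences relative to the median gene were 1.06, 1.14, 1.06 and 1.19 (log2). In coding transcripts E2f4 had 4.59 TPM in library 3 against 1.90 TPM in library 1, Cdkn1a 3.00 against 1.12 TPM and Mcm2 2.36 against 1.14 TPM, but Rrm1 2.10 against 2.37 TPM. With the M4 tables Rrm1 had 3.07 TPM in library 3 against 2.54 TPM in library 1. Over 2-fold higher in library 3 than in library 2 were E2f4 (5.43 against 1.85 TPM) and Ccnd2 (10 against 2.85 TPM), 2 of 22 beside 6.94% of those 8302 genes. No gene of the 22 was over 2-fold lower in library 3 than in either other library, and none was over 2-fold apart between libraries 2 and 1. The shares of protein-coding genes past 2-fold in these directions were not counted, so nothing particular to the members can be read from this.

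Other measures moved with library 3. The summed NK cell markers were 1734 TPM in library 3 against 705 TPM in library 1 and 599 TPM in library 2, with Ncr1 at 133 against 41.8 and 39.8 TPM. The platelet markers summed to 100 TPM against 15.4 and 11.6 TPM, with Ppbp at 33.7 against 2.17 and 2.47 TPM and Itga2b at 14.6 against 8.64 and 4.72 TPM. The erythroid markers summed to 265 TPM against 3540 and 3332 TPM. The recorded range of fragment sizes reached 1000 bp in library 3, against 594 bp in library 1 and 491 bp in library 2, each from 200 bp. The part of these measures in the levels of the 40 genes was not tested.

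**Figure D4:**
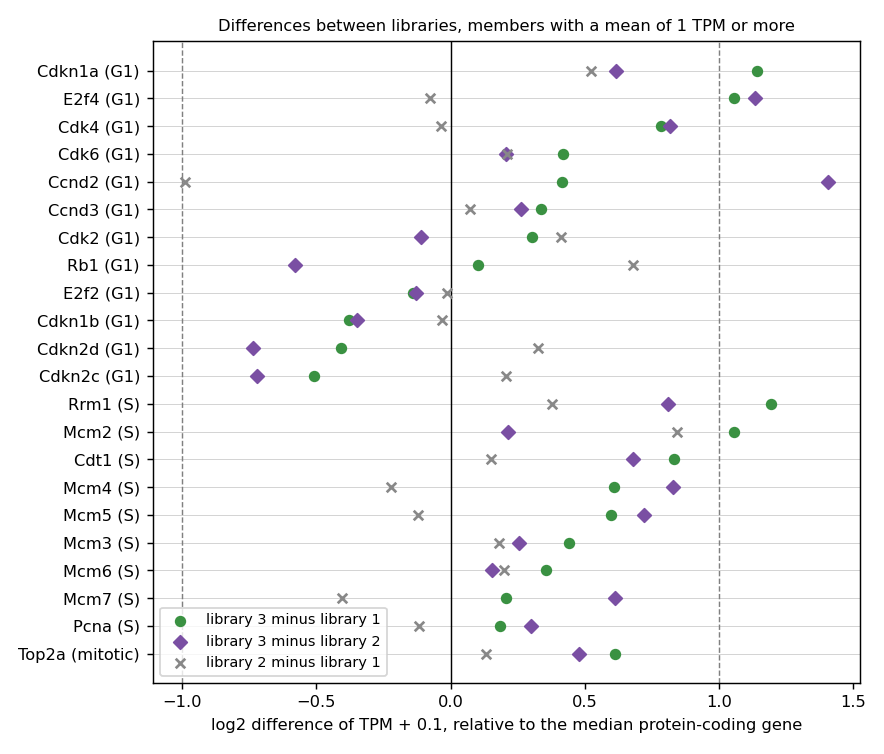
Difference of log2(TPM + 0.1) between libraries, relative to the median protein-coding gene, for the 22 genes with a mean of 1 TPM or more; circles are library 3 minus library 1, diamonds library 3 minus library 2 and crosses library 2 minus library 1. Dashed lines mark 2-fold; circles pass the upper line for Cdkn1a, E2f4, Mcm2 and Rrm1, and diamonds for E2f4 and Ccnd2.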

How the data were processed

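Per the labels and the deposited files, the authors made each table on mm10, once for GENCODE M21 and once for GENCODE M4; no source used here gives their programs or strand setting. The deposited tables give an expected count (an estimated number of reads) and a TPM per gene and per transcript, the latter scaled by the authors over all rows, small RNAs included, and the percent of each gene's TPM per transcript. Symbols came from the identifiers in the deposited M21 transcript tables; all 260 genes on the lists, the 40 members included, matched 1 gene each. Counts on rows that name no gene made up at most 0.000571% of a library and stayed out of the tests.

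Expected counts were rounded and fitted with edgeR 4.0.16 (quasi-likelihood, intercept only), with an offset set to the logged count expected at 1 TPM, which makes a two-sided test of 1 TPM. Testing was limited to genes whose counts summed to 10 or more, and p-values were adjusted by Benjamini-Hochberg over 17664 genes at 0.05; 3471 genes with an effective length of 0 in a library were left out. The fit was also run on counts simulated with its own fitted dispersions. That run cannot show how the test behaves if these libraries scatter otherwise. Class differences used log2(TPM + 0.1) within each library, and library pairs were set relative to protein-coding genes with a mean of 1 TPM or more. Relatives were searched with BLAST+ 2.17.0 (95% identity over at least 50% of the shorter transcript). Alternatives were DESeq2 1.42.0, limma 3.58.1, other scales, filters and levels, the M4 tables, a further deposited set of transcript tables and leaving out each library. Depth was 19.9 to 27.2 M counts, and counting error alone sets the limit of 3 counts used for a count of 0.

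The members, classes and lists were chosen with earlier results of these data known. All 40 members are named; of each wider list the 3 highest and the lowest by mean TPM are named, of each marker list the highest 2 and its first defining marker, and transcripts of members with a mean of 1 TPM or more whose leading transcript is not the longest coding transcript or holds under 50% of the gene. Of the genes this rule names, 2 are not reported here.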

Additional observations from a re-analysis of the deposited data

How the results depend on the processing

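Of 475 gene levels recomputed, 388 kept direction and call, 38 gained a call in the same direction, 20 lost it and 29 turned. The count of members above 1 TPM was 17 to 19 with a library left out, 32 of 40 against 1 TPM of protein-coding genes alone (68.4% of all genes) and 12 against 2 TPM (32.5%). The count below was 0 to 2 with a library left out, 11 with DESeq2 (23.3% of all genes), 12 with limma (35.6%), 8 of 36 with at least 10 counts in every library (13.4%), 12 against 2 TPM (19.2%), and 0 against 0.5 TPM (0.996%) and against 1 TPM of protein-coding genes alone (0.00566%). On that protein-coding scale the log2 levels of E2f1, Cdc6 and Gins2, called below in the report, were 0.85, 0.011 and 0.84. Those of Ccnd1, Ccne1, Cdc45, Rrm2, Tyms, Mki67, Aurka, Aurkb, Cdk1 and Ccna2 turned to calls above at 1.40, 1.56, 1.73, 2.88, 2.35, 2.59, 2.20, 2.17, 2.47 and 1.495, and those of Birc5, Bub1 and Ccnb1 turned without a call at 1.45, 0.055 and 0.62. Against 2 TPM those of Cdk2, Cdkn1a, E2f2, Mcm2 and Top2a were -0.11, -0.10, -0.085, -0.024 and -0.095, those of Cdkn2c and Cdt1 -0.31 each, and Cdk6 turned to a call below at -0.67. Against 0.5 TPM those of Rrm2, Tyms, Mki67 and Cdk1 were 0.61, 0.095, 0.35 and 0.20, with no call, and with M4 that of Cdt1 was -0.19. The cause was not tested beyond the change of level itself.

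G1 minus mitotic (log2) was 1.56 with a pseudocount of 1, 3.15 with 0.01, 1.15 with members of a mean of 1 TPM or more, 2.84 with the further transcript tables, 3.14 on the protein-coding scale, 2.91 with Ccna2 and Top2a moved to S and 2.31 without the CDK inhibitors. S minus mitotic was 1.31 and 2.74 with those pseudocounts, 2.68 with medians, 1.28 with members of a mean of 1 TPM or more, 2.03 with M4, 2.73 on the protein-coding scale, 2.01 without Pcna and 2.05 with coding transcripts alone. G1 minus S was -0.065 with medians, -0.12 with members of a mean of 1 TPM or more, 0.56 with M4, 0.53 with Ccna2 and Top2a moved, 0.67 without Pcna, 0.014 without the inhibitors and 0.77 with coding transcripts alone.

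For libraries 3 minus 1, 3 minus 2 and 2 minus 1, the median over members was 0.19, 0.0066 and 0.15 with a pseudocount of 1, 0.36, 0.26 and 0.14 with M4, 0.48, 0.025 and 0.17 with the further transcript tables, and 0.19, 0.11 and 0.16 with coding transcripts alone. With 1 mean effective length per gene, the first pair gave 0.26 and the second 0.076. Coding transcripts alone and the mean effective length were chosen after seeing the data. Genes under about 50 counts are limited by depth.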
